A study of Mus musculus with 44 samples.

Results

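The nuclear pore and nuclear transport genes were taken by symbol from the table of ribosome-associated RNA. They are the rows that start with Nup, Kpna, Kpnb, Ipo, Xpo or Tnpo followed by a digit, together with Cse1l, Ran, Ranbp1, Ranbp2, Rangap1, Rcc1, Ncbp1 and Ncbp2. In all, 34 of the 8203 rows met this rule, and the rule uses symbols only, although the set was chosen with earlier results of these data known. By role they are 4 genes of the Ran cycle, 5 importin alpha adaptors, 10 import receptors of the importin beta family, 4 export receptors, 2 subunits of the nuclear cap-binding complex and 9 nucleoporins.

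Nuclear pores are large ring-shaped assemblies of nucleoporins that cross the nuclear envelope, and proteins and RNAs above a small size pass them only on transport receptors. Importin alpha adaptors bind the nuclear localization signal of a cargo and join it to importin beta, while other importin beta family members carry cargo directly. The small GTPase Ran sets the direction of transport, since it is loaded with GTP in the nucleus by Rcc1 and made to hydrolyse it in the cytoplasm by Rangap1. In neurons this system also carries signals from synapses to the nucleus, and importin alpha adaptors are known for that role.

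Crh-TRAP mice carry 2 transgenes, a Crh-Cre transgene (Tg(Crh-cre)1Kres) and a Cre-dependent eGFP-L10a ribosomal protein at Rosa26, each heterozygous, so every group, the controls included, has tagged ribosomes in cells where the Crh promoter drove Cre. Mice were 10 to 16 weeks old. TA mice (16, of which 10 males and 6 females) heard 5 tones without shock, FC mice (12, of which 6 males and 6 females) received 5 tone-shock pairings, and EXT mice (16, of which 10 males and 6 females) were conditioned in the same way and on the next day heard 30 tones without shock in another context. Mice were killed 2 h after the session, so EXT mice also differed from both other groups by a day and by an additional session. Each sample was an individual mouse. The tissue was a bilateral punch centred on the amygdala, so tagged cells outside the central nucleus could contribute, and fewer tagged cells cannot be told apart from less RNA per cell.

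The deposited values are voom-type log2 cpm (reads of a gene scaled to a common library size, on a log2 scale), so that a difference of 1 is a doubling. Effective library sizes solved from them ran from 12802113 to 20440351 reads, and the lowest value in the table stood for 28 reads. The labels name 5 batches. Batches 1, 2 and 5 hold all 3 groups, while batches 3 and 4 hold 6 EXT mice and no other group, so batch and group cannot be told apart there. Among the EXT mice 1 library stood apart, EXT replicate 3 of batch 3, which had the highest value of the 16 EXT mice in 14 of the 34 genes. Crh itself, which marks the tagged cells, had means of 5.81 ± 0.65 (SD, n = 16) log2 cpm in TA, 5.68 ± 0.85 (n = 12) in FC and 4.85 ± 1.03 (n = 16) in EXT mice. The EXT mean includes the 6 mice of batches 3 and 4. With batch as a factor and sex in limma, Crh differed by -0.32 in EXT vs. TA (standard error 0.22, p = 0.152). In FC vs. TA it differed by -0.34 (standard error 0.17, p = 0.0564). Of the marker lists, 9 of 10 central amygdala and Crh neuron genes and 6 of 6 neuronal genes were in the table, whereas 0 of 6 microglial and 0 of 4 endothelial genes were. The summed level of the central amygdala and Crh list ranged from 2992 to 7335 cpm in TA, from 3103 to 8017 in FC and from 1433 to 7733 in EXT mice. RNA of other cell types was present too, with 6 of 6 oligodendrocyte genes summing to between 1351 and 17875 cpm, 6 of 6 astrocyte genes to between 184 and 1074 cpm, 3 of 6 glutamatergic genes to between 370 and 1198 cpm and 4 of 9 choroid plexus genes to between 186 and 51048 cpm. These ranges overlapped between the 3 groups, while medians differed for some lists. In TA, FC and EXT mice the median sums were 5096, 4691 and 3925 cpm for the central amygdala and Crh list. They were 412, 652 and 698 for astrocyte and 6543, 1624 and 2609 for choroid plexus genes. For oligodendrocyte genes they were 3286, 3235 and 3697, and for glutamatergic genes 747, 764 and 768. For the neuronal list they were 5915, 5705 and 4996.

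The RefSeq promoter windows (250 bases before and 50 after the start site, build GRCm38.p6) were matched for 25 of the 34 genes. The entries not matched were Nup85, Nup35, Nup43, Xpo7, Cse1l, Kpna1, Kpna3, Kpna6 and Ncbp2. The windows of Ncbp1, Ipo4, Kpna2 and Kpna4 are shown as examples from 3 roles among the 8 matched genes that were lower in EXT vs. TA at an unadjusted p under 0.05, and they were picked after their values were seen. They are chr4:46138261-46138560 on the plus strand, chr14:55635635-55635934 on the minus strand, chr11:106999476-106999775 on the minus strand and chr3:69127043-69127342 on the minus strand. Each is written 5′ to 3′ on the strand of the gene, and capitals mark matches to the motifs named in the next paragraph.
Ncbp1: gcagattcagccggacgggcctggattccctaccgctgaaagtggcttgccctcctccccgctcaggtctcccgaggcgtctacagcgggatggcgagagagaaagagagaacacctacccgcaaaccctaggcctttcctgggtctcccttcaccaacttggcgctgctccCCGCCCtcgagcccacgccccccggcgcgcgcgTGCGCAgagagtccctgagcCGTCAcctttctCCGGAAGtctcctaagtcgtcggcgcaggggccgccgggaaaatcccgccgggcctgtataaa
Ipo4: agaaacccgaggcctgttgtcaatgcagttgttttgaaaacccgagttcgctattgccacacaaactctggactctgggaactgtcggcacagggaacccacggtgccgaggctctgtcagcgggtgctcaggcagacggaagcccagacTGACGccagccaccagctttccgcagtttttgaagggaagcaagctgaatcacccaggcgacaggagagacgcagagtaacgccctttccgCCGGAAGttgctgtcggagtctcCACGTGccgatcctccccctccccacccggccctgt
Kpna2: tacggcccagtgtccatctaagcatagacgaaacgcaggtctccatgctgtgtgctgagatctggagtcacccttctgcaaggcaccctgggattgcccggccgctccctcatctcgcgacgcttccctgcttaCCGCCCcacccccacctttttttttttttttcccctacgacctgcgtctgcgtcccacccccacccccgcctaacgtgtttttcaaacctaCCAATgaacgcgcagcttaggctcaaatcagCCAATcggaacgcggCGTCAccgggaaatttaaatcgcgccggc
Kpna4: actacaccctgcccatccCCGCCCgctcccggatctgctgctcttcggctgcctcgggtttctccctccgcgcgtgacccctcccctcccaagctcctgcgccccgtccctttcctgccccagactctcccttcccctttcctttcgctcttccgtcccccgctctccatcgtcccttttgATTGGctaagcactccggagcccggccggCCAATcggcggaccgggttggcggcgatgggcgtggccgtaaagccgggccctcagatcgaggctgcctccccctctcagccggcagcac

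These windows were rich in G and C. Over the 25 genes the median GC content was 61.7% with a median of 27 CG dinucleotides, beside 52.7% and 7 in all 32851 mouse windows of the table. Short motifs were searched on both strands. The GC box GGGCGG was in 17 of 25 windows (35.7% of all windows hold it), the CCAAT box CCAAT in 14 (37.4% of all), the cAMP response element core TGACG in 11 (20.8% of all), the E-box CACGTG in 7 (7.15% of all), the NRF1 core TGCGCA in 5 (7.76% of all) and the Ets site CCGGAAG in 4 (8.86% of all). The full cAMP response element TGACGTCA, which contains the core, was in 0 of 25 windows and in 1.79% of all windows. In Ncbp1 and Ipo4 the Ets letters start 13 and 9 bases before the RefSeq start site, and Kpna4 and Kpna2 each hold the CCAAT letters at 2 places. For Ncbp1 and Ipo4 this start site is not the start of the gene in GENCODE M21. The Ncbp1 window ends before that start (46138613), and the Ipo4 window lies inside the gene placed with GENCODE M21. A match describes letters only, and no binding was measured.

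Per kilobase of exon, the Ran cycle held both the highest levels and a low one. Ran, the GTPase itself, was the highest of the 34 at a mean of 7.56 ± 0.35 log2 cpm per kilobase (SD, n = 44). Ranbp1, which binds Ran in its GTP form and assists its hydrolysis, followed at 7.21 ± 0.27, and the SD ranges of these 2 genes overlapped. Ncbp2, the small cap-binding subunit, followed at 6.05 ± 0.32 and Rangap1 at 5.72 ± 0.35, again with overlapping SD ranges. Rcc1, the exchange factor that loads Ran with GTP on chromatin, was far lower at 2.14 ± 0.32. Among adaptors Kpna3 was highest at 4.51 ± 0.47 and Kpna6 lowest at 1.57 ± 0.36. Among the importin beta family Ipo13, which can carry cargo in both directions, led at 4.62 ± 0.38, while Ipo7, an import receptor of ribosomal proteins, had 1.12 ± 0.36. The export receptors lay close together, from 1.28 ± 0.35 for Xpo7 to 2.24 ± 0.32 for Xpo6. This order depends on the divisor, the joined length of all annotated exons, which is 19005 bases for Xpo7 and 5273 for Cse1l. Before division Xpo7 had a mean of 5.53 log2 cpm, above Xpo1 at 4.97 and Cse1l at 4.63. The lowest of all was Ranbp2, the very large protein of the cytoplasmic filaments, at 0.22 ± 0.49. Ranbp2 has 12 named copies and Kpna2 has 1 in GENCODE M21, so counting could have split their reads. Ipo4 shares 55.3% of its exon bases with Gm49378, a gene on the same strand that is not in the table, so its reads are uncertain as well. Ranbp1 shares 16.9% with Gm49776 on the same strand, and Tnpo2 and Kpnb1 share 10.6% and 7.07% with antisense genes. Exons of Ncbp1 share 2.42% and 2.27% of their bases with Tstd2 and Xpa on the other strand, and the sources used here do not state strand-specific counting.

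**Figure D1:**
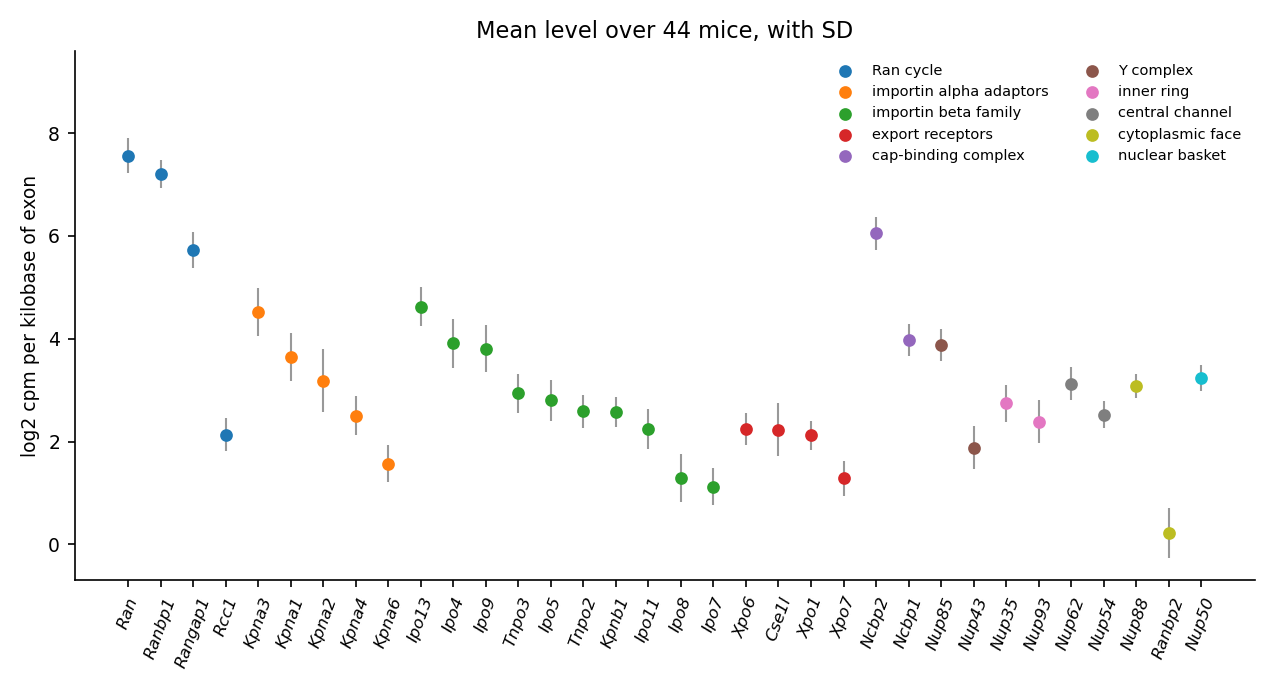
Mean level of each of the 34 genes over 44 mice in log2 cpm per kilobase of exon (vertical axis), grouped by role (colour), with bars of 1 SD between mice. Ran (7.56) and Ranbp1 (7.21) are highest and Ranbp2 (0.22) is lowest.

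In EXT vs. TA mice, genes of the transport machinery were lower after EXT more often than higher. With batch as a factor and sex in the limma model, 11 of 34 were lower and 0 higher at an unadjusted p under 0.05. Over all 8203 genes, 21.1% had such a p, 11% lower and 10.2% higher. Of the 34 differences 30 were negative, with a median of -0.15 on the log2 scale beside 0.01 over all genes. None of the 34 was FDR-significant in limma (0 genes), and 0.0244% of all genes were, which is 2 genes. The 11 genes were Rangap1, Ncbp1, Kpna1, Ipo4, Ipo11, Xpo6, Kpna4, Cse1l, Kpna3, Kpna2 and Nup88. Of the central amygdala and Crh markers 2 of 9 were also lower at such a p (Gad1 at -0.42 and Gad2 at -0.24, named after their values were seen), with a median of -0.21, and of the neuronal markers 1 of 6 was (Tubb3 at -0.42), with a median of -0.12. Their part in the differences of the transport genes was not tested. No astrocyte, oligodendrocyte or choroid plexus marker in the table passed this threshold (0 of 6, 0 of 6 and 0 of 4 in limma). Even so, 4 of 6 astrocyte, 6 of 6 oligodendrocyte and 4 of 4 choroid plexus markers had negative differences. Their medians were -0.05, -0.12 and -0.45, and the standard errors of the choroid plexus markers ran from 0.45 to 0.91. The part of these lists was not tested either.

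**Figure D2:**
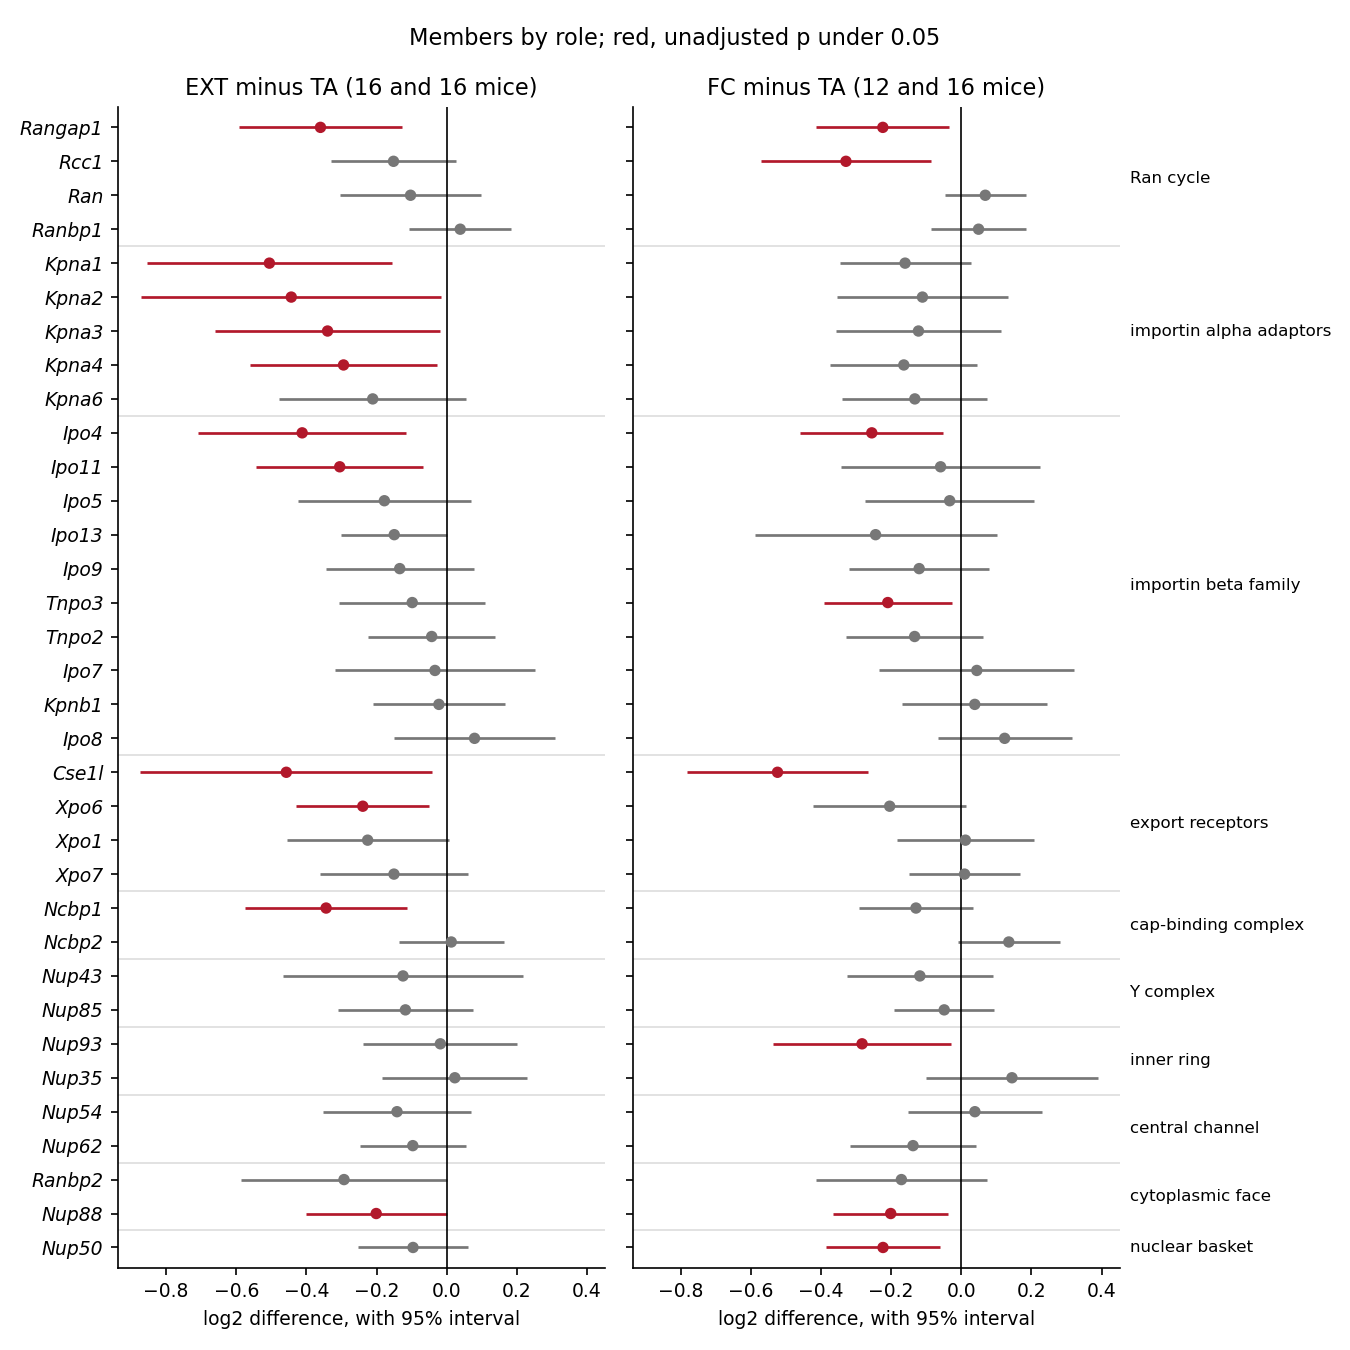
Log2 difference of each gene from TA (horizontal axes) in EXT mice (left) and FC mice (right) from limma with batch as a factor and sex, with 95% intervals. Red marks an unadjusted p under 0.05, and all 11 red points on the left and all 8 on the right lie below 0.

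Within the Ran cycle, Rangap1, the GTPase-activating protein anchored at the cytoplasmic face of the pore, was lower after EXT. Rangap1 (chr15:81704248-81745530) ranged from 7.89 to 8.74 log2 cpm with a median of 8.17 in TA mice and from 7.21 to 8.66 with a median of 7.74 in EXT mice. The groups overlapped, yet 14 of the 16 mice of the EXT group had less than the TA median. Below every TA mouse lay 9 of the 16 EXT mice, 4 of these 9 in batches 3 and 4, which hold no TA mouse. The difference was -0.36 (standard error 0.11, p = 0.00346, adjusted p = 0.143 in limma), a ratio of 0.78. Ran had a median of 9.07 in TA and 8.93 in EXT mice, and its difference of -0.10 (95% interval -0.30 to 0.10) was not past the threshold. Ranbp1 differed by 0.04 (-0.11 to 0.18) and Rcc1 by -0.15 (-0.33 to 0.03). Of the 4 genes of the cycle, Rangap1 alone had an interval that leaves out 0.

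The importin alpha adaptors had 4 of 5 members lower at an unadjusted p under 0.05, with a median difference of -0.34 over the 5. This count rested on single mice, since without EXT replicate 6 it was 1 of 5, with p of 0.101 for Kpna2, 0.107 for Kpna3 and 0.111 for Kpna4. Without that mouse 6 of the 34 genes were lower, beside 7.44% of all genes. Kpna1 (chr16:35978750-36037131) encodes an importin alpha adaptor that is widely expressed in brain. It ranged from 6.54 to 7.25 with a median of 7.04 in TA mice and from 5.51 to 7.73 with a median of 6.36 in EXT mice. The TA median exceeded 15 of the 16 EXT values and 10 were below every TA mouse, 5 of these 10 in batches 3 and 4. In contrast, EXT replicate 3 was above every TA mouse. The difference was -0.51 (standard error 0.17, p = 0.00596, adjusted p = 0.149 in limma), a ratio of 0.70. Kpna3 ranged from 6.29 to 7.25 in TA and from 5.47 to 7.36 in EXT mice, with medians of 6.87 and 6.51. Its EXT values were spread widely, and 7 of 16 were below every TA mouse, 5 of these 7 in batches 3 and 4. The difference was -0.34 (standard error 0.16, p = 0.039). Kpna2, which is the adaptor typical of dividing cells and which many neurons hold at a low level, had the widest EXT range of the family, from 2.66 to 5.74 with a median of 4.37, beside 4.15 to 5.49 with a median of 5.10 in TA mice. Its difference was -0.44 (standard error 0.21, p = 0.043). Kpna4, known with Kpna3 for the import of NF-kappa B, ran from 4.79 to 6.25 in EXT and from 5.49 to 6.18 in TA mice, with 10 of 16 EXT mice below every TA mouse. Of these 10, 5 were in batches 3 and 4. The Kpna4 difference was -0.29 (standard error 0.13, p = 0.031). Kpna6 differed by -0.21 (95% interval -0.48 to 0.06, p = 0.116). In 3 of the 5 adaptors, Kpna1, Kpna2 and Kpna3, the same mouse, EXT replicate 3, had the highest value of all EXT mice (7.73, 5.74 and 7.36).

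**Figure D3:**
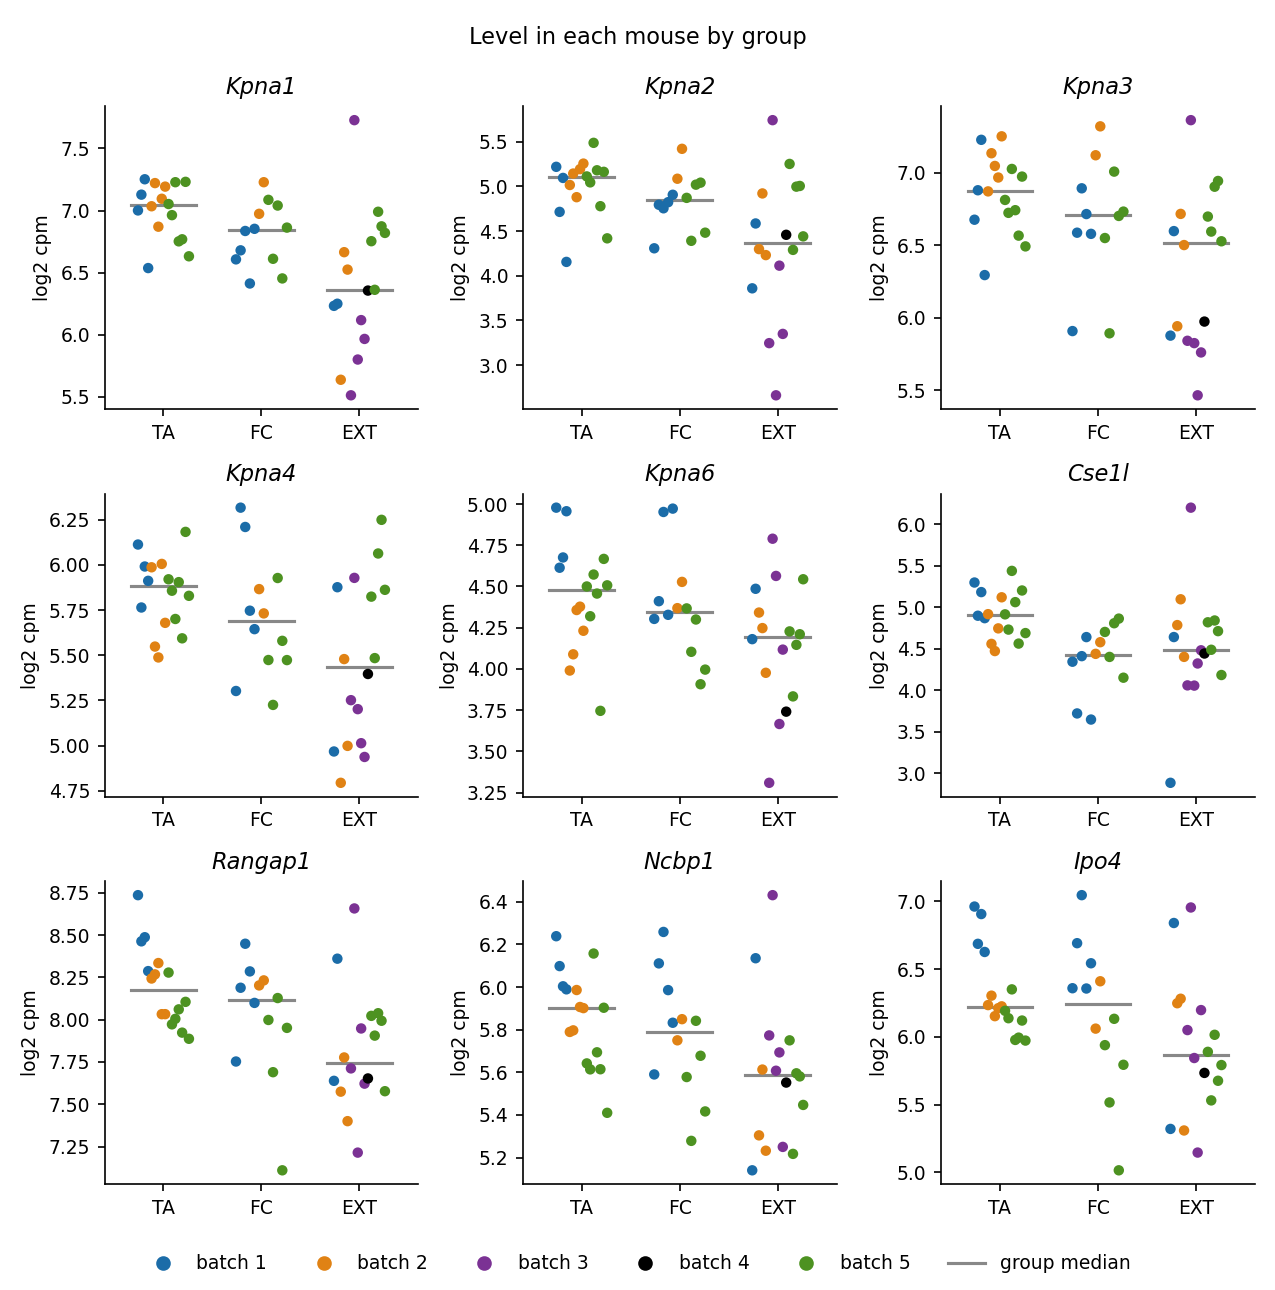
Level of 9 genes in each mouse (log2 cpm) by group, with points coloured by batch and a grey line at the group median. For Kpna1 the EXT median is 6.36 and the TA median 7.04, and the single high EXT point in most panels is replicate 3 of batch 3.

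The importin beta family was less uniform. Kpnb1, importin beta itself and the partner of every importin alpha, differed by -0.02 (95% interval -0.21 to 0.17), with medians of 5.30 in TA and 5.27 in EXT mice. Ipo4, an import receptor of histones and ribosomal proteins, ranged from 5.97 to 6.96 in TA mice (median 6.22) and from 5.15 to 6.96 in EXT mice (median 5.87). Below every TA mouse lay 9 of the 16 EXT mice, 3 of these 9 in batches 3 and 4. The difference was -0.41 (standard error 0.14, p = 0.00789, adjusted p = 0.149 in limma). Ipo11, the carrier of a ubiquitin-conjugating enzyme, had a TA median of 5.26 and an EXT median of 5.15, and the groups overlapped fully, since no EXT mouse was below the lowest TA mouse. Its difference inside batches was -0.31 (standard error 0.12, p = 0.0137, adjusted p = 0.159 in limma). The other 7 receptors of the family ran from -0.18 for Ipo5 to 0.08 for Ipo8, and none had an unadjusted p under 0.05. Ipo13 was nearest to that threshold at -0.15 (p = 0.052).

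All 4 export receptors had negative differences, 2 of them at an unadjusted p under 0.05. Cse1l (chr2:166906040-166946389) encodes the receptor that returns importin alpha from the nucleus to the cytoplasm. It ranged from 4.47 to 5.44 with a median of 4.91 in TA mice and from 2.89 to 6.20 with a median of 4.49 in EXT mice. The extremes were EXT replicate 6 of batch 1 at 2.89 and EXT replicate 3 at 6.20, and 14 of the 16 values were under the TA median. The difference was -0.46 (standard error 0.20, p = 0.0325). Without EXT replicate 6 it was -0.25 (p = 0.159), and without EXT replicate 3 it was -0.45 (p = 0.0119). Xpo6, the exporter of actin, had medians of 6.42 in TA and 6.27 in EXT mice and a difference of -0.24 (standard error 0.09, p = 0.0153). Xpo1, the receptor for proteins with a leucine-rich export signal, differed by -0.23 (p = 0.0553) and Xpo7 by -0.15 (p = 0.158).

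Of the cap-binding subunits 1 of 2 was lower at an unadjusted p under 0.05. Ncbp1 (chr4:46138613-46172403), the large scaffold subunit, ranged from 5.41 to 6.24 with a median of 5.90 in TA mice and from 5.14 to 6.43 with a median of 5.59 in EXT mice. In the EXT group 14 of 16 values were under the TA median and 5 under every TA mouse. Batches 3 and 4 gave 1 of these 5. The difference was -0.34 (standard error 0.11, p = 0.00493, adjusted p = 0.144 in limma), a ratio of 0.79. Ncbp2, the subunit that contacts the cap, differed by 0.01 (95% interval -0.14 to 0.16), with TA and EXT medians of 7.25 and 7.14. The difference between the subunits was not tested.

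Of the 9 nucleoporins only Nup88, at the cytoplasmic face, had an unadjusted p under 0.05 in limma. It ranged from 5.71 to 6.60 in TA and from 5.59 to 6.63 in EXT mice, and 15 of the 16 EXT values were under the TA median of 6.29. The difference was -0.20 (standard error 0.10, p = 0.0495). It kept an unadjusted p under 0.05 in 13 of the 32 fits that leave out a mouse, and lost it with median-centred samples, quantile normalization or library size as a covariate. Ranbp2 differed by -0.29 (standard error 0.14, p = 0.0505). The scaffold nucleoporins had intervals that include 0, with -0.12 for Nup43, -0.12 for Nup85, -0.02 for Nup93 and 0.02 for Nup35. The FG nucleoporins of the central channel, Nup54 and Nup62, differed by -0.14 and -0.10, and Nup50 of the nuclear basket by -0.10. No difference between roles was tested.

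Since only batches 1, 2 and 5 hold both groups, the difference was also read inside each. In EXT vs. TA, 17 of 34 genes were lower in all 3 of these batches and 0 were higher in all 3, beside 19.3% and 19.2% of all genes. The median over the 34 was -0.20 in batch 1, -0.21 in batch 2 and -0.11 in batch 5. Kpna1 showed -0.74, -0.81 and -0.19 in the same order, so batch 5, the largest of these batches with 5 EXT and 7 TA mice, gave the smallest difference. Rangap1 showed -0.49, -0.60 and -0.13, and Ncbp1 showed -0.44, -0.49 and -0.20. Cse1l rested on batch 1, with -1.30 there, a difference near 0 in batch 2 and -0.33 in batch 5, and it was -0.20 (p = 0.307 in limma) without batch 1. Ipo11 was the most even of the 11, at -0.20, -0.37 and -0.29. Kpna4 was the only one of the 11 with a positive difference in a batch, 0.04 in batch 5.

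**Figure D4:**
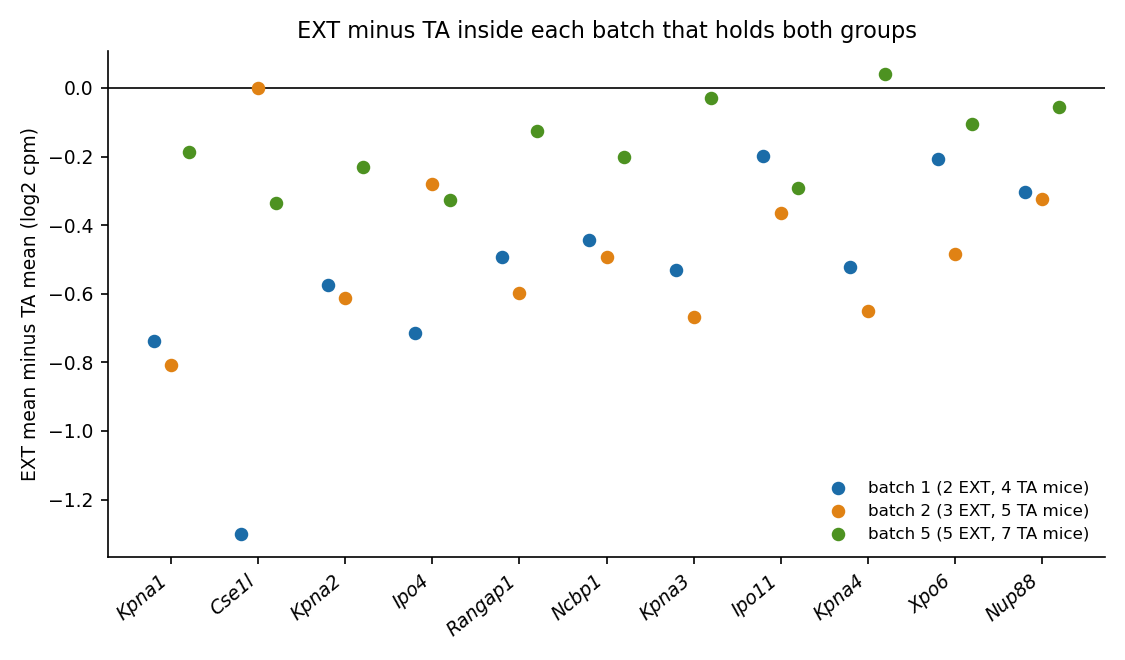
EXT mean minus TA mean (log2 cpm, vertical axis) inside batches 1, 2 and 5 (colour) for the 11 genes that were lower in EXT vs. TA at an unadjusted p under 0.05. Batch 5, with 5 EXT and 7 TA mice, lies nearest 0 for most genes, and Cse1l has its largest difference, -1.30, in batch 1.

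Which genes were FDR-significant depended on the mice and the batch term in the fit. Without batches 3 and 4 (10 EXT and 16 TA mice), 14 of 34 genes were lower at an unadjusted p under 0.05, beside 13.4% of all genes, and Rangap1, Kpna1 and Ncbp1 were FDR-significant in limma, beside 4.99% of all genes. Their differences were -0.36, -0.49 and -0.34, with adjusted p of 0.0355, 0.0348 and 0.0478. Without EXT replicate 3 alone 12 genes were lower at an unadjusted p under 0.05, beside 12.8% of all genes, and the same 3 were FDR-significant in limma, beside 5.75% of all genes, with adjusted p of 0.0362, 0.0286 and 0.0423. With batch coded as a number, which lets batches 3 and 4 enter the contrast, 8 genes were FDR-significant in limma, beside 21.4% of all genes. These were Kpna1, Kpna2, Kpna3, Kpna4, Rangap1, Ran and Ipo4 as lower and Ipo8 as higher. With log2 library size as a covariate 1 gene had an unadjusted p under 0.05, beside 4.68% of all genes. It was Rangap1 (-0.29, standard error 0.14), and Kpna1 had -0.34 (standard error 0.21, p = 0.122 in limma). Under this covariate 30 of the 34 differences were negative with a median of -0.12, beside 30 and -0.15 in the main fit. The median standard error of the 34 genes was 0.13, beside 0.11 in the main fit. Mean library size was lower in EXT than in TA mice in each shared batch, at 16441141 and 18847373 reads in batch 1, 15332321 and 17913527 in batch 2, and 14951941 and 17058111 in batch 5. Library size thus moved with the group, and its part in the differences was not tested beyond this covariate.

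The 6 EXT mice of batches 3 and 4 stood apart from the other 10 in several genes. Ipo9, an import receptor of histones and actin, ranged from 7.40 to 8.14 in these mice and from 6.46 to 7.43 in the other 10 EXT mice, while TA mice lay between 6.33 and 7.34, below all 6. Ipo8, a receptor linked to the import of Smad and Argonaute proteins, ranged from 5.49 to 6.88 in these mice and from 4.86 to 5.56 in the other EXT mice. In both genes 5 of the 6 mice lay above all other EXT mice. Ran showed the reverse, from 7.78 to 8.91 with a median of 8.23, beside 8.34 to 9.29 with a median of 9.06 in the other EXT mice, and 5 of the 6 lay below every TA mouse. Ncbp2 had all 6 below every TA mouse, from 6.50 to 6.95. The mean of the 6 mice minus that of the other 10 was 1.14 for Ipo9, 1.06 for Ipo8, 0.95 for Ranbp2, -0.71 for Ran and -0.54 for Ncbp2. No TA mouse shares these batches, so these values are a description of batch and group together. Over all 44 mice, batch taken alone accounted for 72.7% of the variance of Ipo9, 71.5% of Ipo8, 72.2% of Ncbp2 and 64.8% of Ran. For Nup88 and Cse1l it accounted for 1.75% and 7.02%. The median over the 34 genes was 31.2%, beside 41.5% over all genes. These batch shares were taken without a group term, so they include group differences where batch and group go together. Group taken alone accounted for 15.7% in Ipo9, 21.3% in Ipo8, 25.3% in Ncbp2 and 27.4% in Ran. In Nup88 and Cse1l it accounted for 16.4% and 18.4%.

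**Figure D5:**
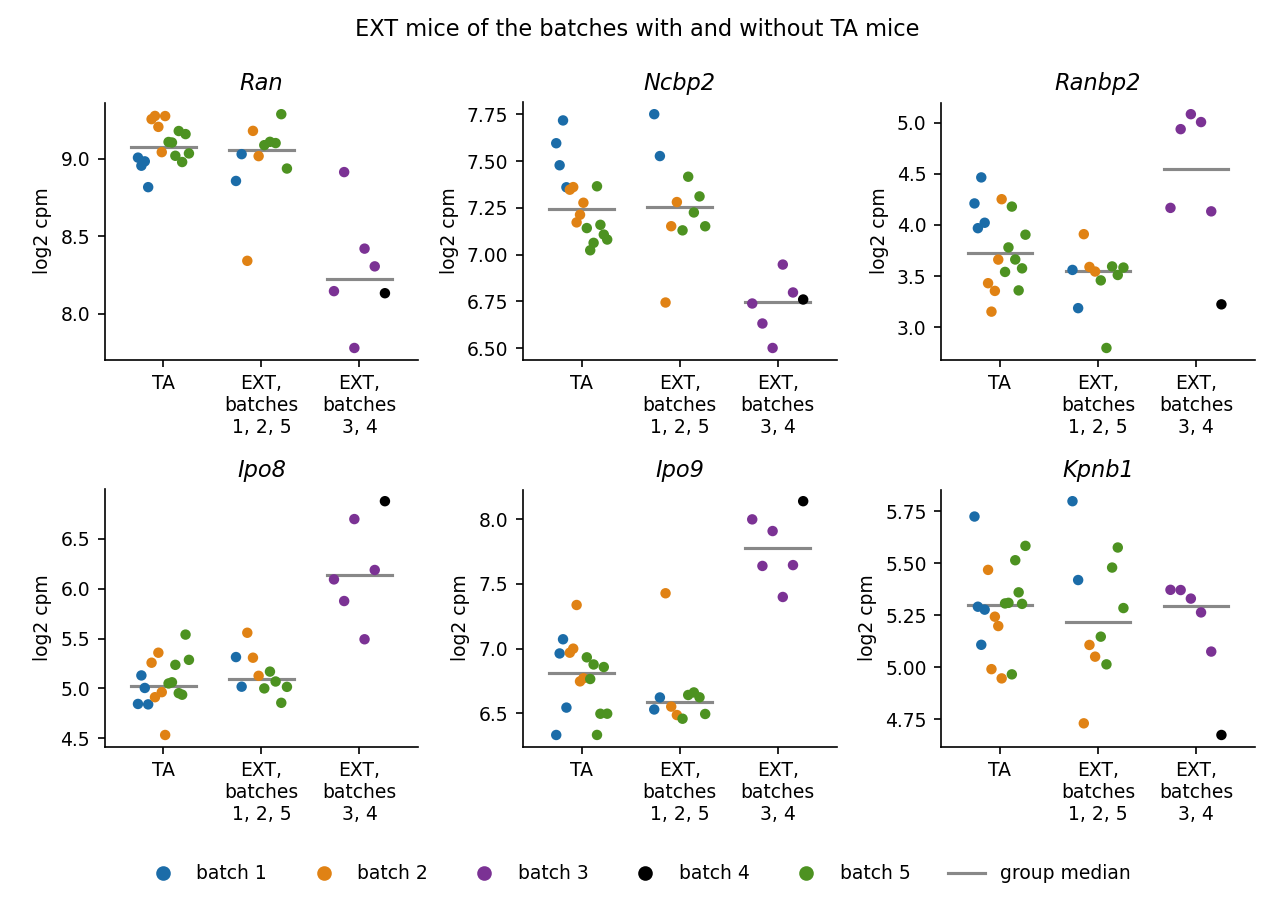
Level (log2 cpm) of 6 genes in TA mice, in the 10 EXT mice of batches 1, 2 and 5 and in the 6 EXT mice of batches 3 and 4, coloured by batch, with grey lines at the medians. Ran has medians of 9.06 and 8.23 in the EXT sets, Ipo9 lies at 7.40 or above in batches 3 and 4, and Kpnb1 overlaps throughout.

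FC vs. TA compared mice given tone-shock pairings with the same 16 TA mice. No group received shock without pairing, so shock itself and learned association cannot be told apart here. In limma 8 of 34 genes were lower after FC and 0 higher at an unadjusted p under 0.05, beside 16.8% of all genes, 8.2% lower and 8.61% higher. None was FDR-significant in limma (0 of the 34, and 0% of all genes). The median difference of the 34 was -0.13, beside 0.00 over all genes. Cse1l was the leading gene, and its p ranked 23 among all 8203. It ranged from 3.65 to 4.87 with a median of 4.43 in FC mice, so all 12 FC mice lay below the TA median of 4.91 and 7 below every TA mouse. The difference was -0.52 (standard error 0.13, p = 0.00028, adjusted p = 0.0904 in limma), a ratio of 0.70, and it was -0.91, -0.25 and -0.36 in batches 1, 2 and 5. Cse1l, the recycling receptor for importin alpha, was at this unadjusted p below TA while the adaptors it carries differed by -0.11 to -0.16 with none of 5 at an unadjusted p under 0.05. Whether Cse1l differed more than the adaptors was not tested.

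The other 7 genes below TA after FC were 2 of the Ran cycle, 3 nucleoporins and 2 import receptors. Rcc1 ranged from 2.90 to 4.39 with a median of 4.08 in FC mice, beside 3.56 to 4.63 with a median of 4.19 in TA mice, and its difference was -0.33 (standard error 0.12, p = 0.00979). Rangap1 differed by -0.22 (standard error 0.09, p = 0.022), although its FC median of 8.11 was near the TA median of 8.17. Among nucleoporins, Nup50, which helps release cargo from importin alpha at the nuclear basket, had medians of 5.43 in FC and 5.58 in TA mice and differed by -0.22 (standard error 0.08, p = 0.00884). Nup88 differed by -0.20 (standard error 0.08, p = 0.0179) and Nup93, a scaffold nucleoporin of the inner ring, by -0.28 (standard error 0.12, p = 0.0307). FC and TA ranges overlapped for each of these genes. Of the import receptors Ipo4 differed by -0.26 (p = 0.0158) and Tnpo3, the carrier of serine and arginine-rich splicing factors, by -0.21 (p = 0.0261). Rangap1, Nup93 and Tnpo3 lost this p in limma without FC replicate 10, when 5 of the 34 genes had it, beside 13.1% of all genes. That mouse had the lowest FC value of Rangap1 (7.11), Rcc1 (2.90), Nup93 (3.19) and Ipo4 (5.02), and the highest of Cse1l (4.87). The largest positive differences by p were 0.14 for Ncbp2 (p = 0.0667), 0.12 for Ipo8 (p = 0.195) and 0.14 for Nup35 (p = 0.236), none past the threshold. Other lists moved too, with 3 of 9 central amygdala and Crh genes lower 3 of 6 astrocyte genes higher and 2 of 4 choroid plexus genes lower at an unadjusted p under 0.05 in FC mice, and their part was not tested.

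EXT vs. FC compared the conditioned groups directly. In limma 1 of 34 genes had an unadjusted p under 0.05, beside 4.19% of all genes, and none was FDR-significant (0% of all genes). This was Xpo1, at -0.28 (standard error 0.12, p = 0.0334, adjusted p = 0.975), whose difference was -0.61, -0.12 and -0.17 in batches 1, 2 and 5. Xpo1 medians were nearly the same over all mice, at 4.96 in FC and 4.97 in EXT mice. Kpna1 differed by -0.34 (95% interval -0.75 to 0.07, p = 0.0967) and Ipo11 by -0.25 (-0.54 to 0.04). Cse1l differed by -0.05 (-0.50 to 0.39), an interval that includes differences in either direction as large as many of those from TA. Positive differences by p were led by Nup93 at 0.24 (-0.10 to 0.57) and Rcc1 at 0.17 (-0.12 to 0.47). EXT vs. TA and FC vs. TA both subtract the same TA mice, so no agreement between them was counted.

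The sexes were compared by an interaction term. The EXT vs. TA difference did not differ between males and females at an unadjusted p under 0.05 in any of the 34 genes (0 of 34 in limma, 0 also FDR-significant), beside 6.02% of all genes. The smallest p was that of Xpo1 (0.0819), whose difference was 0.36 higher in males (95% interval -0.05 to 0.77). In males alone (10 and 10 mice) 6 of 34 genes were lower at an unadjusted p under 0.05, and in females alone (6 and 6 mice) 3 were, beside 7.51% and 5.62% of all genes. Kpna1 was among both, at -0.29 in males and -0.82 in females. In the fits of each sex alone, batches 3 and 4 have their own batch terms, so their EXT mice add nothing to the EXT vs. TA difference. These are 2 females and 3 males in batch 3 and 1 male in batch 4, and batch 1 holds no EXT male. Sex was taken from the labels.

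Genes around the same pathway outside the symbol rule were read from fixed lists. Over all genes 11% were lower and 10.2% higher in EXT vs. TA at an unadjusted p under 0.05, which is the share to set beside each list. Of 14 other pore and transport genes in the table, 1 was lower and 1 higher in EXT vs. TA at such a p, with a median of -0.09. These were Ranbp3, a cofactor of Xpo1, at -0.15 and Nutf2, the carrier that brings Ran back into the nucleus, at 0.17. Of 16 mRNA export genes 1 was lower, Poldip3 at -0.36, and 3 were higher, Thoc7 at 0.23, Sarnp at 0.23 and Eny2 at 0.22, with a median of -0.02. Of 8 nuclear lamina and envelope genes 1 was lower, Lmnb2 at -0.33, and 1 higher, Banf1 at 0.15. In FC vs. TA the mRNA export list had 3 higher genes, among them Nxt2, a cofactor of the main mRNA exporter, at 0.39 (p = 2.99e-05), Sarnp at 0.25 and Thoc7 at 0.18, and 1 lower gene, Thoc5 at -0.33. Over all genes 8.61% were higher and 8.2% lower in FC vs. TA at an unadjusted p under 0.05. None of the genes named from these lists was FDR-significant in limma. The median differences of these lists lay nearer 0 than that of the 34 genes, and no test compared the lists.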

How the data were processed

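Per the study's methods the authors trimmed reads with Trimmomatic 0.36, mapped them to GRCm38 with STAR, sorted them with SAMtools, counted them per gene, used edgeR on the counts, retained only genes over a cpm minimum in each sample, dropped outlying samples and deposited voom-normalized log2 values. All 44 columns hold deposited log2 cpm, and those with the recorded unit other hold the same quantity. Strand-specific counting is not given in the sources used here. Reads in the values (offset 0.5) were solved back as whole numbers for 360932 of 360932 values, within 0.02 reads.

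Groups, batch and sex came from the labels. Models for 2 groups at a time were fitted to the deposited log2 values in R 4.3.3 using limma 3.58.1 (lmFit, then eBayes, two-sided), with batch as a factor and sex, and Benjamini-Hochberg adjustment over 8203 rows. The methods do not name the coding of batch. A factor was used because batch numbers have no order and batches 3 and 4 hold only EXT mice. Intervals are 95%. Levels per kilobase divide by the joined length of all annotated exons of a gene in GENCODE M21, and genes were placed with it. Promoters came from RefSeq (GRCm38.p6). Tables were made with Python 3.11.15, and the fits were tested on simulated data.

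The members, role lists, other pathway lists and marker lists were chosen with earlier results of these data known. Named genes were, for each comparison, the 5 lower and the 5 higher ones that had the smallest p, the highest and lowest of each role per kilobase, the Ran cycle and the cap-binding complex. Kpna2, Kpna4, Kpnb1, Ipo5, Ipo9 and Tnpo3 fall outside this rule and were named after their values were seen. Alternatives were a numeric batch, a model lacking batch, one lacking the mice of batches 3 and 4, a joint fit of the 3 groups, a floor of 5 on the mean log2 value, quantile-normalized or median-centred samples, log2 library size as a covariate, voom weights, and trended and robust eBayes. Leaving out each mouse, and each of batches 1, 2 and 5, was added after the data were seen. Listed genes that did not appear in the table were not analysed here. Errors are SD or standard error between mice.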

Additional observations from a re-analysis of the deposited data

How the results depend on the processing

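In EXT vs. TA, the 11 genes at an unadjusted p under 0.05 became 1 with log2 library size as a covariate (4.68% of all genes), 6 without batch 1 (10.6% of all genes) and 4 without batch 2 (10.9%), so that the share of the 34 without batch 2 was near that of all genes. With library size as a covariate 30 of the 34 differences were still negative, with a median of -0.12. Leaving out each mouse gave 6 to 13, with 6 without EXT replicate 6 (13.4% of all genes) and 7 without TA replicate 12 (19.2%). Rangap1, Xpo6, Ipo11, Ipo4, Kpna1 and Ncbp1 kept this p without any single mouse (32 fits), and Rangap1 also kept it under the 10 alternatives that keep batches 1, 2 and 5, but not without batch 2 (p = 0.0958). Nup88 kept it in 13, Kpna2 in 19, Kpna3 in 22, Kpna4 in 27 and Cse1l in 29 of these 32 fits, and Kpna2 also lost it with quantile normalization. FDR-significant genes numbered 0 in the main comparison, 8 with batch as a number (21.4% of all genes), 8 with no batch term (19.7%) and 3 without batches 3 and 4 (4.99%), and 0 to 3 when single mice were left out. In FC vs. TA the 8 genes became 5 with a minimum mean log2 value of 5 (22 of the 34 genes tested, 18.7% of all genes), 5 with log2 library size (13.1%) and 5 without batch 1 (13.9%), and 5 to 10 when single mice were left out, 5 being without FC replicate 10. In EXT vs. FC the 1 gene became 8 with batch as a number (19.3% of all genes), 7 with no batch term (18.1%), 2 without batches 3 and 4 (5.16%) and 0 at the minimum of 5 (3.91%), which leaves out Xpo1, and 0 to 2 when single mice were left out. Xpo1 was not among the 8 or the 7, and with log2 library size it lost this p too (0.0826). The count became 0 without EXT replicate 4, 6 or 13 and 2 without EXT replicate 3 or FC replicate 3 or 4. The sex difference had 1 gene without batches 3 and 4 (14.5% of all genes), and 0 in the main comparison. Ncbp2 in EXT vs. TA turned from 0.01 to -0.21 with no batch term. Causes of these shifts were not tested. No paired analysis was possible because the labels give the groups no shared replicate numbers. The smallest shared batch holds 2 EXT mice, which limits what the EXT contrast can show, and the sex labels were not checked against expression.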
